A study of Mus musculus with 10 samples.

Results

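Expression of 10 genes that shape and clear mitochondria was read from 13492 genes measured in mouse tibialis anterior, a fast-twitch muscle at the front of the lower leg. Their rows were found by symbol, from a list drawn up with earlier results of these data known, as Mfn1, Mfn2 and Opa1 for fusion, Dnm1l, Fis1 and Mff for fission, and Pink1, Bnip3, Bnip3l and Fundc1 for mitophagy. All 10 were in the table and all 10 were above the expression minimum used for testing, a mean log2 CPM of 0 (CPM is counts scaled to the library total). The comparison is between 5 libraries labelled Lrtm1 KO and 5 labelled Lrtm1 WT, which the series' design text calls knockout mice and floxed controls. All came from C57BL/6 mice aged 6 months after a fast of 3 h, and no Cre driver or deleted part of Lrtm1 is named in the sources used here. The design text gives 4 per group, while the labels give 5, and no library was left out. There are 3 litters. Litter 108 holds 2 KO and 1 WT libraries, litter 110 holds 1 KO and 2 WT, and litter 112 holds 2 KO and 2 WT. Whether each library is its own animal is not stated, and p-values then measure only how these libraries vary.

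Mitochondria form a network that is remade continually. Mitofusins (Mfn1 and Mfn2) join outer membranes and Opa1 joins inner membranes, whereas the dynamin-like GTPase Dnm1l, also known as Drp1, is drawn to the outer membrane by adaptors such as Mff and constricts it. Damaged or surplus mitochondria are taken up by autophagosomes, either after the kinase Pink1 builds up on their surface and marks them with phosphorylated ubiquitin, or through receptors such as Bnip3, Bnip3l and Fundc1 that bind LC3 and GABARAP proteins directly. In skeletal muscle, Mfn2 is known as a target of Ppargc1a (PGC-1 alpha), and Bnip3 as a gene induced by FoxO factors in atrophy and by hypoxia.

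The targeted gene does not bear out the labels. Lrtm1 was 6.20, 6.12, 6.10, 5.97 and 6.21 log2 CPM in KO replicates 1 to 5, against 5.61, 5.66, 5.73, 5.65 and 5.78 in WT replicates 1, 3, 4, 5 and 6. Every library labelled KO lay above every library labelled WT (log2 difference 0.44, SE 0.07, adjusted p = 0.0344 in limma), so every direction given here is between libraries as labelled. Which exons were deleted is not known here, and reads from exons that were kept would check nothing. The 12 muscle fibre markers were all in the table and summed to between 98568 and 102132 CPM in KO and between 89476 and 101977 CPM in WT. Summed markers of endothelium, fibroblasts and tenocytes, macrophages, satellite cells, Schwann cells and erythrocytes overlapped between the groups. Single markers were lower in KO in 7 of 8 for fibroblasts and tenocytes and 5 of 5 for macrophages. The same held in 4 of 4 for satellite cells, 4 of 4 for Schwann cells, 3 of 4 for erythrocytes and 3 of 6 for endothelium. None of these markers passed in either of the fits described below. Cd3e, Cd79a, S100a8 and S100b are not in the table. The 6 adipocyte markers summed to between 9.10 and 14.1 CPM in KO and between 17.0 and 30.0 CPM in WT, without overlap, and 4 of the 5 that could be tested passed as lower in the looser of the fits described below, none in the stricter. The part of other cell types in the results was not tested. In whole muscle, fewer cells of a type and less RNA per cell cannot be told apart.

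No member passed the threshold between libraries labelled KO and WT, and the differences were small. Of the 10 members, 7 were lower in KO and 3 higher, with log2 differences between 0.03 and 0.15 in size and a median of -0.05. Over all genes tested the median was -0.00409, and 51.4% lay below 0. The kinase gene Pink1 had the largest difference, lower in KO, and Bnip3 had the largest difference in the other direction. Pink1 was the only member whose groups did not overlap, and 16.2% of all genes tested did not overlap. The test was limma across 12223 genes with litter as a term, and the threshold a Benjamini-Hochberg adjusted p of 0.05. The deposited values carry no residual in 3 of the 6 directions left by litter and genotype, so these removed terms were counted as lost degrees of freedom. By this rule 41 genes, or 0.335% of those tested, passed, and none of the 10 members did. At an unadjusted p of 0.05, 1 member passed, Pink1, where 10.1% of all genes tested did. In a fit that leaves the removed terms uncounted, and so takes 6 residual degrees of freedom where 3 remain, 1 member passed, again Pink1, against 8.62% of all genes tested (5.15% higher and 3.48% lower in KO). A share of 1 in 10 is near that background. At an unadjusted p of 0.05 this looser fit passed 3 members (Pink1, Bnip3 and Mff), against 26.4% of all genes tested.

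**Figure D1:**
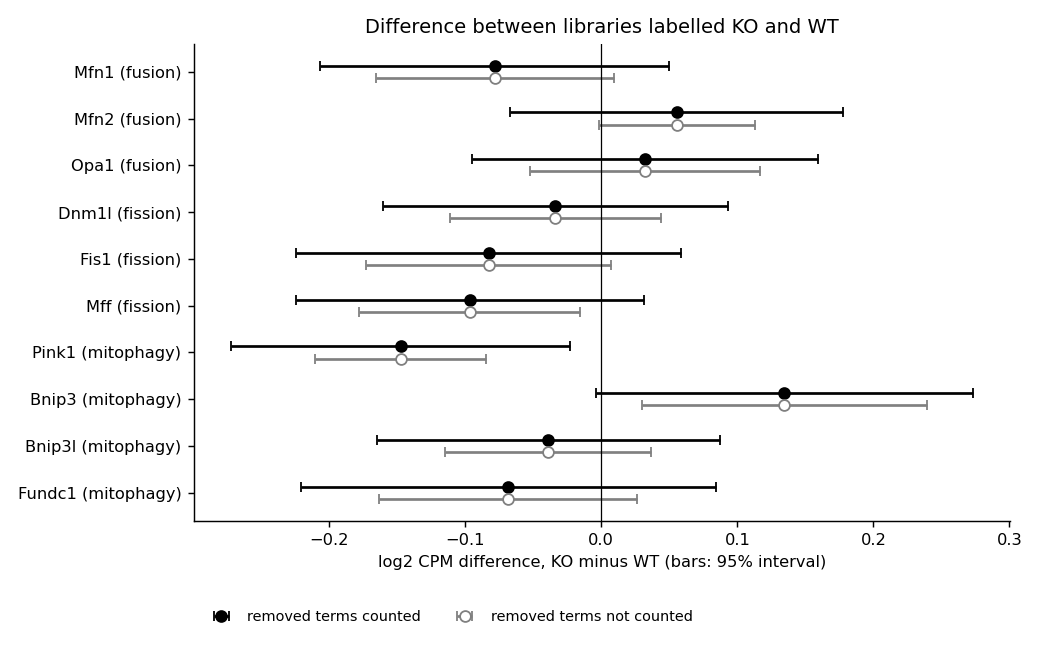
Difference in log2 CPM between libraries labelled KO and WT for each member, with 95% intervals from limma with the removed terms counted (filled) and not counted (open). Differences lie between -0.15 for Pink1 and 0.13 for Bnip3, and with the removed terms counted the interval of Pink1 alone leaves out 0.

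Among the fusion genes, Mfn2 was a little higher in KO and Mfn1 a little lower, and neither passed the threshold. Mfn2 is the mitofusin that also tethers mitochondria to the endoplasmic reticulum. It was 9.69, 9.67, 9.66, 9.63 and 9.69 log2 CPM in KO replicates 1 to 5, against 9.59, 9.61, 9.62, 9.60 and 9.64 in WT replicates 1, 3, 4, 5 and 6. The groups nearly separated, with KO replicate 4 just under WT replicate 6 and every other KO library above every WT library. The log2 difference was 0.06 (SE 0.06, 95% interval -0.07 to 0.18, limma adjusted p = 0.796), and it was above 0 in each litter at 0.09, 0.05 and 0.04 for litters 108, 110 and 112.

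Mfn1, the other mitofusin, was 7.77, 7.77, 7.82, 7.75 and 7.69 log2 CPM in KO, against 7.81, 7.87, 7.75, 7.92 and 7.84 in WT, in the same order of replicates. KO replicate 5 was the lowest library and WT replicate 5 the highest, and the groups overlapped. The log2 difference of -0.08 (SE 0.06, 95% interval -0.21 to 0.05, limma adjusted p = 0.708) came mostly from litter 112 (-0.16), with -0.05 in litter 108 and 0.01 in litter 110.

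Opa1, which fuses inner membranes and holds cristae together, was 6.89, 6.86, 6.91, 6.85 and 6.83 log2 CPM in KO, against 6.82, 6.83, 6.80, 6.95 and 6.78 in WT. WT replicate 5 was the highest library of all, and the other 4 WT libraries lay at 6.83 or lower, the level of the lowest KO library. Opa1 differed by 0.03 on the log2 scale (SE 0.06, 95% interval -0.10 to 0.16, limma adjusted p = 0.900), and its sign turned in litter 112 (-0.03, against 0.06 and 0.10 in litters 108 and 110).

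**Figure D2:**
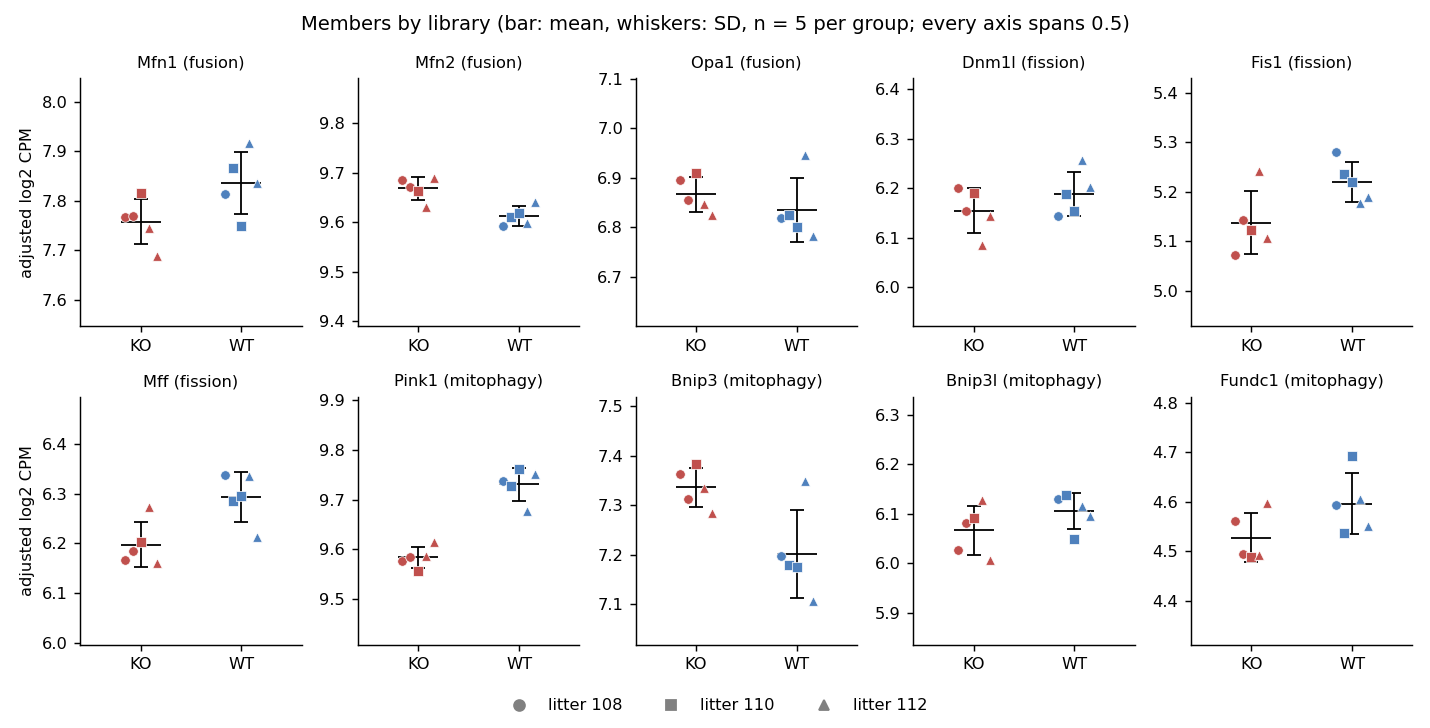
Adjusted log2 CPM of each member in every library, with the mean and SD of each group (n = 5 each) and the litter as the marker shape; every axis spans the same range of log2 units. Pink1 is the only member in which all KO libraries lie on 1 side of all WT libraries, as they do in 16.2% of all genes tested. WT replicate 5 of litter 112 lies apart from the other WT libraries for Opa1 and Bnip3.

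All 3 fission genes were lower in KO, none of them past the threshold. Mff, the outer membrane adaptor that brings Dnm1l to sites of division, had the largest difference of the 3. It was 6.17, 6.18, 6.20, 6.27 and 6.16 log2 CPM in KO, against 6.34, 6.29, 6.30, 6.34 and 6.21 in WT. Only KO replicate 4 and WT replicate 6, both of litter 112, bridged the groups. Mff differed by -0.10 on the log2 scale (SE 0.06, 95% interval -0.22 to 0.03, limma adjusted p = 0.631), with -0.16, -0.09 and -0.06 in litters 108, 110 and 112.

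Fis1, a small outer membrane protein with a role in fission and in stress-induced removal of mitochondria, was 5.07, 5.14, 5.12, 5.24 and 5.11 log2 CPM in KO, against 5.28, 5.24, 5.22, 5.18 and 5.19 in WT. KO replicate 4 alone lay among the WT libraries. Its difference was -0.08 on the log2 scale (SE 0.06, 95% interval -0.22 to 0.06, limma adjusted p = 0.723), and it was nearly all in litters 108 (-0.17) and 110 (-0.11), with -0.01 in litter 112. Dnm1l itself was 6.20, 6.15, 6.19, 6.09 and 6.14 log2 CPM in KO, against 6.14, 6.19, 6.15, 6.26 and 6.20 in WT. The groups were intermixed, with a log2 difference of -0.03 (SE 0.06, 95% interval -0.16 to 0.09, limma adjusted p = 0.895) that was above 0 in litters 108 and 110 and below 0 in litter 112.

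Of the mitophagy genes, Pink1 had a lower level in KO and Bnip3 a higher one, the receptors Bnip3l and Fundc1 differed less, and none passed the threshold. Pink1 was 9.57, 9.58, 9.56, 9.59 and 9.61 log2 CPM in KO replicates 1 to 5, against 9.74, 9.73, 9.76, 9.68 and 9.75 in WT replicates 1, 3, 4, 5 and 6. The highest KO library (replicate 5) lay 0.06 below the lowest WT library (also replicate 5). Groups did not overlap in this way in 16.2% of all genes tested, and in 7.63% with KO below WT as for Pink1 (8.56% with KO above). In linear units Pink1 was 767 ± 11.3 CPM in KO and 850 ± 19.5 CPM in WT (SD, n = 5 each), or 9.72% lower in KO. On the log2 scale Pink1 differed by -0.15 (SE 0.06, 95% interval -0.27 to -0.02), with -0.16, -0.19 and -0.11 in litters 108, 110 and 112. The limma adjusted p was 0.400 with the removed terms counted and 0.0156 without counting them. Over all alternatives tried it lay between 0.00122 and 0.666. The lower value of 0.0156 passed the threshold and was lost when KO replicate 2 (adjusted p = 0.0578), KO replicate 3 (0.109) or WT replicate 1 (0.105) was left out. The last 2 of these are the only library of their genotype in their litter, so leaving them out also takes that litter out of the comparison. Calls over all genes fell as well in these fits, to 343, 162 and 101 of the 12223 tested, against 1054 with all libraries. The log2 difference of Pink1 was then -0.15, -0.13 and -0.14.

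Bnip3, a hypoxia-inducible receptor on the outer membrane, was 7.36, 7.31, 7.38, 7.33 and 7.29 log2 CPM in KO, against 7.20, 7.18, 7.18, 7.35 and 7.11 in WT. WT replicate 5 lay among the KO libraries, and the other 4 WT libraries were below all 5 KO libraries. Bnip3 was 162 ± 4.35 CPM in KO and 147 ± 9.34 CPM in WT (SD, n = 5 each), a 1.10-fold difference. On the log2 scale this was 0.13 (SE 0.06, 95% interval -0.0039 to 0.27, limma adjusted p = 0.510, and 0.105 with the removed terms not counted), with 0.14, 0.21 and 0.08 in litters 108, 110 and 112. Without WT replicate 5 the log2 difference was 0.18. The limma adjusted p was then 0.101 with the removed terms counted in part and 0.00585 without counting them. The first of these fits kept 3 residual degrees of freedom, as many as with all libraries, so not every removed term was counted. The value of 0.00585 passes the threshold, so 1 library decides that call of the looser fit. Without WT replicate 5 that fit also passed more genes over all, 1709 of the 12223 tested against 1054 with all libraries.

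Bnip3l (also called Nix), the paralog of Bnip3 that clears mitochondria from maturing red cells, was 6.03, 6.08, 6.09, 6.13 and 6.01 log2 CPM in KO, against 6.13, 6.14, 6.05, 6.12 and 6.10 in WT. Bnip3l differed by -0.04 on the log2 scale (SE 0.06, 95% interval -0.17 to 0.09, limma adjusted p = 0.875), and the groups were intermixed. Fundc1, a receptor of hypoxia-induced mitophagy, was 4.56, 4.49, 4.49, 4.49 and 4.60 log2 CPM in KO, against 4.59, 4.54, 4.69, 4.60 and 4.55 in WT. Its log2 difference was -0.07 (SE 0.07, 95% interval -0.22 to 0.08, limma adjusted p = 0.799), and WT replicate 4 was the highest library. The log2 ratio of Mfn2 to Pink1 CPM, in which transcript length cancels between groups but not between genes, was between 0.04 and 0.11 in KO libraries and between -0.15 and -0.08 in WT libraries. The groups did not overlap in it, but the pair was picked after the values were seen and carries no test.

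The start regions of the members with the largest difference in each direction are shown as the 250 bases before the RefSeq start site (GRCm38.p6, both genes on the minus strand). Capitals mark the core letters of a hypoxia response element, ACGTG or GCGTG, on either strand. The Pink1 window is chr4:138326297-138326546 and the Bnip3 window is chr7:138909507-138909756.
Pink1: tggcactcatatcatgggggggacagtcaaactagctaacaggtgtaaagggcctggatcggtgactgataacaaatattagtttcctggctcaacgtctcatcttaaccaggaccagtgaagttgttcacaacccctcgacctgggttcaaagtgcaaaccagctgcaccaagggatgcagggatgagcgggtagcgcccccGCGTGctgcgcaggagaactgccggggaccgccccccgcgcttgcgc
Bnip3: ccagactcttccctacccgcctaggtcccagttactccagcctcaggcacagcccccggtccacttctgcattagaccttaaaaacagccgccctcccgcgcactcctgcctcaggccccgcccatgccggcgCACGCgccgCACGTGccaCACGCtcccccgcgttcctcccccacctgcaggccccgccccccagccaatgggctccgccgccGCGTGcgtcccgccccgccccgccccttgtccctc
The Pink1 window holds 1 such core and the Bnip3 window holds 5, of which 2 are the overlapping strands of 1 palindrome. At least 1 core stands in 38.6% of the 32851 RefSeq windows of the same length, so a match is common and is only a description of letters. The windows were also searched on both strands for GTAAACA (FoxO), AAGGTCA (ERR), GTCACGTG (the lysosomal CLEAR element, which contains ACGTG), TGACGTCA (CRE) and GCATGCGC (the core of an NRF1 site), and none of these stood in the Pink1 or Bnip3 window. Of the other members, the Opa1 window held GCATGCGC, a string found in 2.26% of all windows. The hypoxia core also stood in all 3 windows of Mfn2 and in 1 of the 2 windows of Dnm1l, so it is not particular to Pink1 and Bnip3. Bnip3l had no entry in the table of windows.

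Levels were compared between genes per length of transcript, here as CPM per kb of the longest transcript annotated in GENCODE M21. The libraries were primed with oligo-dT, so reads need not scale with length. The ranking below rests on that scaling, which was not tested. Pink1 was the highest member at 323 ± 4.76 CPM per kb in KO and 358 ± 8.20 in WT (SD, n = 5 each). Mfn2 was next at 187 ± 3.00 in KO and 180 ± 2.41 in WT, and Bnip3 followed at 92.0 ± 2.48 in KO and 83.9 ± 5.32 in WT. Mfn1 stood at 47.5 ± 1.51 CPM per kb in KO and 50.1 ± 2.16 in WT, and Fis1 at 37.2 ± 1.68 in KO and 39.3 ± 1.12 in WT. Bnip3l, Mff, Opa1 and Dnm1l lay together between 18.0 and 20.6 CPM per kb in KO and between 18.3 and 21.1 in WT. Within that cluster the means of Mff, Opa1 and Dnm1l in KO, of Opa1 and Dnm1l in WT, and of Bnip3l and Mff in WT differed by less than the sum of the SDs of both genes. Fundc1 was the lowest at 11.6 ± 0.41 in KO and 12.2 ± 0.53 in WT. With the median length of a gene's protein-coding transcripts in place of the longest, Pink1 and Mfn2 kept the first places, Mfn1 (135 in KO and 143 in WT) passed above Bnip3 (131 in KO and 119 in WT), and Bnip3l became the lowest.

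**Figure D3:**
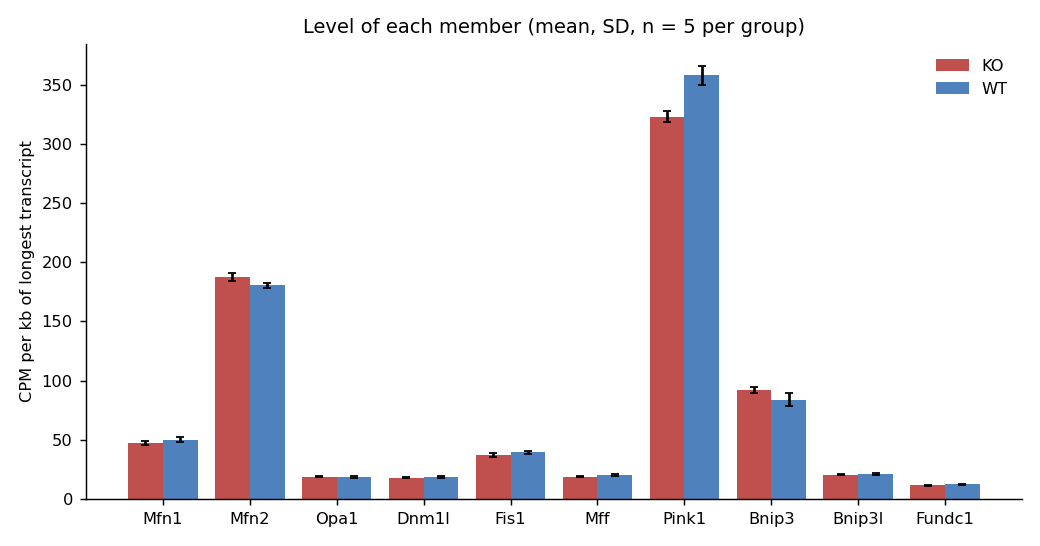
Level of each member in CPM per kb of its longest annotated transcript (bars: mean, whiskers: SD, n = 5 per group; KO left of WT). Pink1 and Mfn2 stand far above the rest in both groups, and the differences between the groups are small beside the differences between genes.

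The members lie on 8 chromosomes, with Pink1 (chr4:138313409-138326307, minus strand) and Mfn2 (chr4:147873599-147904704, minus strand) on the same one and Opa1 and Dnm1l together on chromosome 16 (GENCODE M21, GRCm38). Bnip3l is on chromosome 14, as is the targeted gene Lrtm1, and any part of linkage was not tested. Exons of Bnip3, Dnm1l and Mff overlap an annotated antisense or opposite-strand gene that is not in the table, and no source used here says whether counting used the strand. Bnip3l has an annotated processed pseudogene on chromosome 12, and Mfn1 with Mfn2 and Bnip3 with Bnip3l are paralog pairs. Their values are uncertain as far as reads could be shared. Differences across all genes turned with transcript length, with a median of -0.04 in the shortest of 5 length classes and 0.05 in the longest. Relative to the median of its own length class, Pink1 differed by -0.12 and Bnip3 by 0.17, while Opa1 turned to -0.01. The part of length in these results was not tested beyond this subtraction.

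For each member the tested gene with the most similar profile was found by the root mean square difference of centred log2 CPM over the 10 libraries. For Pink1 this was Otub1 (0.011 log2 units, where Pink1 itself varied by 0.078), for Bnip3 it was Trip12 (0.013, own variation 0.091), for Mfn2 it was Sec22c (0.0064, own variation 0.034) and for Mff it was Dbt (0.0063, own variation 0.065). No member had another member as its nearest gene. Such near matches are the measure over many genes whose residuals span only 3 dimensions after the authors' adjustment.

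Other genes of mitochondrial dynamics and mitophagy, read from 10 lists, gave few calls and none in the stricter fit. Of 95 tested genes outside the 10 members, none passed with the removed terms counted, and 4 higher and 2 lower (6.32%) passed with them not counted, against 8.62% of all genes tested. Of the 95, 43 had a difference above 0 and 52 below it, and their median was -0.00792. The lists were chosen with earlier results of these data known, and some genes stand in more than 1 list.

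Partners of fusion and fission and the proteins that shape the inner membrane held no gene past the threshold in either fit. All 6 tested partners of fusion lay below 0 (median -0.03), with Miga1, a mitoguardin, nearest to the threshold at -0.06 (limma adjusted p = 0.849). Of 7 inner membrane proteases and prohibitins that act on Opa1 or Pink1, 6 lay below 0 (median -0.06), and the rhomboid protease gene Parl, whose product cuts Pink1, differed by -0.11 (adjusted p = 0.655). Of 8 MICOS and cristae genes 5 lay below 0 (median -0.04), with Micos13 at -0.11 (adjusted p = 0.698). Of 10 fission partners 7 lay above 0 (median 0.05), with the actin nucleator gene Spire1 at 0.14 (adjusted p = 0.616).

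**Figure D4:**
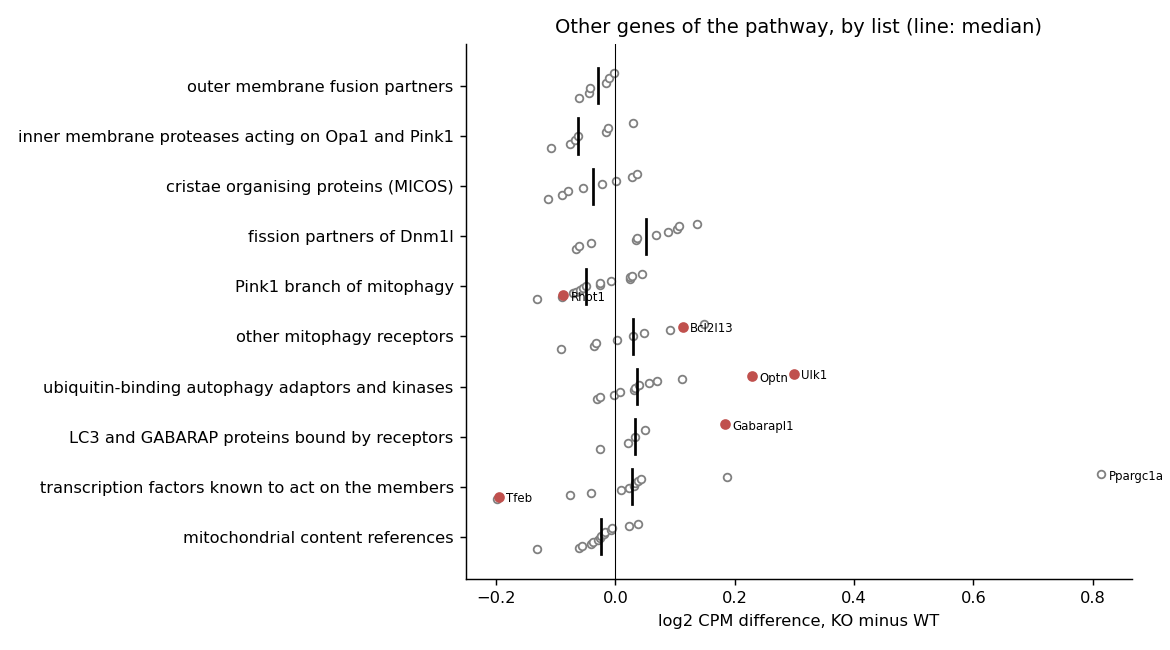
Log2 CPM difference between KO and WT libraries for the genes of each list (short black line: median of the list). Filled red points passed the threshold when the removed terms were not counted; none passed with them counted, and Ppargc1a has the largest difference at 0.81.

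The 6 calls of the looser fit were Ulk1, Optn, Gabarapl1, Bcl2l13, Rhot1 and Tfeb. Ulk1, the kinase that starts autophagy, was 6.96, 6.92, 6.89, 6.83 and 7.0 log2 CPM in KO, against 6.57, 6.60, 6.67, 6.56 and 6.69 in WT. All KO libraries lay above all WT libraries, as in 8.56% of all genes tested. The log2 difference was 0.30 (SE 0.06, limma adjusted p = 0.0886, and 0.00615 with the removed terms not counted). Of the 10 libraries left out in turn, the second value was lost without WT replicate 1 alone (adjusted p = 0.0511). Over all genes the looser fit then passed 101, against 1054 with all libraries. Optn, the adaptor optineurin that links ubiquitin on mitochondria to LC3, was 6.30, 6.33, 6.34, 6.40 and 6.30 log2 CPM in KO, against 6.14, 6.11, 6.10, 6.12 and 6.05 in WT. Its groups did not overlap either (log2 difference 0.23, SE 0.06, limma adjusted p = 0.165, and 0.00513 with the removed terms not counted), and the second value stayed under the threshold whichever library was left out, the largest being 0.0393. Of the 12 tested adaptors and kinases these 2 were higher in the looser fit, none was lower, and 10 did not pass (median difference 0.04).

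Gabarapl1, a GABARAP protein that autophagy receptors bind, ran from 5.93 to 6.02 log2 CPM in KO and from 5.69 to 5.90 in WT (log2 difference 0.18, limma adjusted p = 0.355, and 0.0417 with the removed terms not counted), and was the 1 gene of 5 that passed in the looser fit. Bcl2l13, another mitophagy receptor, ran from 6.83 to 6.90 in KO and from 6.72 to 6.82 in WT (0.11, adjusted p = 0.521 and 0.0469), and was the 1 of 9 further receptors. In the Pink1 branch, 1 of 15 was lower in the looser fit and none higher (median difference -0.05). It was Rhot1, the Miro GTPase of mitochondrial transport, which differed by -0.09 (adjusted p = 0.647 and 0.0469). With 1 library left out at a time, the looser call held in 3 of 10 fits for Gabarapl1, 2 for Bcl2l13 and 1 for Rhot1. All of these were fits without KO replicate 4 or WT replicates 4, 5 or 6, which passed 1347, 1012, 1709 and 1105 genes. The other fits passed between 101 and 480 genes, against 1054 with all libraries.

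Among 12 transcription factors known to act on the members, only Tfeb, a regulator of lysosome and autophagy genes, passed in the looser fit. It ran from 4.93 to 5.04 log2 CPM in KO and from 5.10 to 5.26 in WT (log2 difference -0.20, SE 0.06, limma adjusted p = 0.321, and 0.0185 with the removed terms not counted), and that call held in 7 of 10 fits with 1 library left out. It was lost without KO replicate 2, KO replicate 3 or WT replicate 1, where 343, 162 and 101 genes passed, against 1054 with all libraries. Ppargc1a is named here after its values were seen. It was 6.02, 5.95, 6.26, 5.66 and 5.49 log2 CPM in KO, against 4.84, 5.22, 4.51, 5.61 and 5.11 in WT. Its SD was 0.30 in KO and 0.41 in WT (n = 5 each), and WT replicate 5 lay above KO replicate 5. Ppargc1a differed by 0.81 on the log2 scale (SE 0.21, limma adjusted p = 0.212, and 0.0523 with the removed terms not counted). Without WT replicate 5 it differed by 1.0 (limma adjusted p = 0.0182 with the removed terms not counted), so 1 library decides the call of the looser fit. Over all genes tested that fit passed 1709 without WT replicate 5 and 1054 with all libraries.

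Genes that follow the amount of mitochondria were close between the groups. Of 14 such genes, among them those for citrate synthase and subunits of the respiratory complexes, 12 had a difference below 0, the median was -0.02, and none passed in either fit. Tomm20, a receptor of the outer membrane import pore, came nearest at -0.13 (limma adjusted p = 0.529). Their summed level was between 9979 and 10623 CPM in KO and between 10073 and 11016 CPM in WT.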

How the data were processed

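Libraries were stranded and primed with oligo-dT, per the labels' protocols. The submitters' processing notes name fastp, kallisto and limma, with no versions; no source used here gives the genome build or annotation. Values are log2 CPM, adjusted and deposited by the authors as 1 table of 13492 genes. With genotype in the fit, no gene differed between litters by more than 6.2e-14, and the residuals were 0 in 3 of the 6 remaining directions, so litter and 3 further terms had been removed with genotype kept. SDs leave out that variation, and standard errors are lower bounds. Counts cannot be worked back, so depth per library is unknown; back-converted, a library sums to between 960166 and 1016398 CPM.

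Differences were tested with limma 3.58.1 (R 4.3.3; lmFit, eBayes with trend), two-sided, on 12223 genes (mean log2 CPM of 0 or more), with litter, genotype and the 3 removed terms. No pseudocount was added. Members and gene lists were chosen with earlier results of these data known. Named genes are the members, Lrtm1, up to 3 genes of each list past the threshold in either fit or else the 1 with the smallest p, and each member's nearest profile; others are said to be so. Some genes of the lists are not reported here. Lengths and positions are from GENCODE M21 (99.1% of tested genes matched by Ensembl identifier) and start regions from RefSeq. Steps were run on simulated data, with checks on the number of removed terms found and on the sign of planted differences. No limit was set there on false calls.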

Additional observations from a re-analysis of the deposited data

Results flagged for a closer look

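Opa1 in WT replicate 5 stood apart from the other WT libraries, at 6.95 log2 CPM where the other 4 lay between 6.78 and 6.83. Its gap to the nearest of them was 0.737 of the range of the group, above the limit of 0.71 for 5 samples. It was the only one of 22 groups looked at (the 10 members and Lrtm1 in KO and in WT), and chance gives about 1 in 20. Without WT replicate 5, Opa1 differed by 0.07 between KO and WT (limma adjusted p = 0.389, with the removed terms counted in part). The difference was 0.03 with all libraries, 0.0061 without KO replicate 3 and 0.015 without WT replicate 6.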

How the results depend on the processing

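Of 200 values of the members under alternatives, 194 kept their direction and their side of the threshold or moved by less than the spread between replicates. Pink1 came to pass in 2 settings and Bnip3 and Mff in 1 each, all with the removed terms not counted. Pink1 was -0.12 and Opa1 -0.0129, its sign turned, relative to the median of the length class. When the removed terms were left uncounted, 1054 genes and 1 member (Pink1) passed, against 41 genes and 0 members with them counted, and with the litter term also dropped 2608 genes and 3 members (Pink1, Bnip3 and Mff) passed. The count of genes was 1 with eBayes without the trend, 26 with quantile normalisation (18 of them higher in KO, against 33 of 41) and 8 to 60 when 1 library was left out, and no member passed in any of these. It was 8 without WT replicate 1, 11 without KO replicate 3, 20 without WT replicate 5 and 17 without WT replicate 6. Every such fit with 1 library left out kept 3 residual degrees of freedom, as many as with all libraries. These fits therefore counted the removed terms only in part. With 1 library left out and the removed terms not counted, an alternative chosen after seeing the data, 0 to 2 members passed. Beside Pink1 these were Fis1 without KO replicate 4, Bnip3 without WT replicate 5 and Mff without WT replicate 6. Over all genes those fits passed 1347, 1709 and 1105. The fits in which no member passed, without KO replicate 2, KO replicate 3 or WT replicate 1, passed 343, 162 and 101 genes. The remaining fits passed 1 member and between 396 and 1012 genes. The count of members thus rose and fell with the count over all genes. The replicate numbers do not follow the litters: number 4 lies in different litters in KO and WT. The correlations of same-numbered deviations were -0.846, 0.452, 0.0316 and -0.502 for numbers 1, 3, 4 and 5, with no library correlating best with its own number in both directions. These correlations cannot decide whether numbers pair the libraries. The adjustment removed litter means from the deviations, which pushes libraries of the same litter towards negative correlation. The replicate block on these 4 pairs gave 127 genes and 0 members. It kept 3 residual degrees of freedom, all that genotype and the block leave in these libraries. None of the removed terms was therefore counted, and the 127 genes are not comparable with the 41 found with those terms counted. Depth is unknown, so the part of counting error in each value is unknown too.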
